A study of Saccharomyces cerevisiae with 4 samples.

Results

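Sulfur assimilation and methionine genes are described here by the meiotic DNA breaks mapped at 9 of them: MET3, MET16, MET5, MET10, MET17, MET2, MET6, MET13 and CYS4. They were chosen by name from this pathway, out of 6002 protein-coding genes in the gene table. For each gene the Spo11 oligos were counted in the 5′ gap, which is the stretch between the start of its open reading frame (ORF) and the next protein-coding gene on that side, and in the ORF itself. The 9 genes took 6556 of 2024944 mapped oligos, 6213 in 5′ gaps and 343 in ORFs. A 5′ gap was found for 8 of them, because the start of MET17 lies under another reading frame.

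Meiotic recombination starts with double-strand breaks made by Spo11, a protein that remains covalently attached to the cut DNA. Endonucleases then free it together with a short oligo, and the 5′ end of that oligo marks the cut. In budding yeast most breaks fall in hotspots, which often lie in promoters, where nucleosomes leave the DNA open. Yeast takes up sulfate, activates it and reduces it to sulfide, and joins the sulfide to a carbon chain made from homoserine; the homocysteine formed becomes methionine or, by transsulfuration, cysteine. Transcription of many genes of the pathway is driven by the activator Met4 with its DNA-binding partners Cbf1, Met31 and Met32, and falls when sulfur amino acids are plentiful.

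All samples came from 1 diploid strain of the SK1 background, SKY1874. It is MATα/MATa, and Spo11 carries a tag from SPO11-HA3-His6::kanMX. The other alleles, each on both homologues, are nuc1∆::LEU2, arg4-Nsp, his4X::LEU2, leu2::hisG, ura3, lys2 and ho::LYS2, and none of the listed alleles is at one of the 9 genes. Cultures were grown at 30 °C for 14 h from an optical density of 0.2 in medium with acetate, and were harvested after 4 h in sporulation medium. Culture 1 gave 3 datasets that share purified oligos or ligations, and culture 2 gave 1. The files pool the 4 datasets. By their names the reads belong to 4 sequencing runs (E8YXO9P, FE8RWPF, FFA0GWK and FIDXMPL) of 395612 to 587674 oligos, and the labels do not say which run is which dataset. Values are therefore given pooled and for each run, as RPM (oligos per 1000000 mapped oligos), without a test between samples, and runs are not replicates of a group. Intervals are 95% intervals that cover counting error only, and RPM is a share of all oligos, not a number of breaks per cell. Reads of SK1 were placed on S288C, and distances from an ORF start depend on the register of map and gene table, which around the 9 genes was best at shifts of −70 to 60 bp.

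All 8 genes with a 5′ gap had a hotspot there, and their gaps held 93.3 to 1124 RPM. The hotspot at MET5 was the weakest of these, with 45.9 RPM. MET17 had a weak hotspot inside the reading frame that covers its promoter side. A hotspot is a segment where the smoothed oligo density is at least 2.3 times the genome mean. The count of 8 of 8 (95% Wilson interval 67.6 to 100%) is of summits inside the gap, and stands beside 3974 of 5607 genes with a 5′ gap on 15 chromosomes, or 70.9%. Giving summits outside any 5′ gap to the nearest gap as well made it 4183 of all genes (74.6%). The median 5′ gap of the 8 genes had 270.1 RPM and that of all genes 93.3 RPM, and 7 of the 8 lay above the median of all genes; MET5 equalled it. The gaps of the 8 genes were longer, with a median of 577.5 bp and of 452 bp for all genes, and per kb the medians were closer, 356 RPM for the 8 genes and 199 RPM for all. The difference between the list and all genes was not tested, since the genes were chosen with results of these data known. By gap type, the 5 genes whose gap is divergent had a median of 235 RPM beside 139 RPM in all divergent gaps. The 3 with a tandem gap had a median of 519.5 RPM beside 62.2 RPM in all tandem gaps. That median is the value of MET2, between 103.7 RPM at MET10 and 1124 RPM at MET13, and the MET13 value depends on the register.

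**Figure D1:**
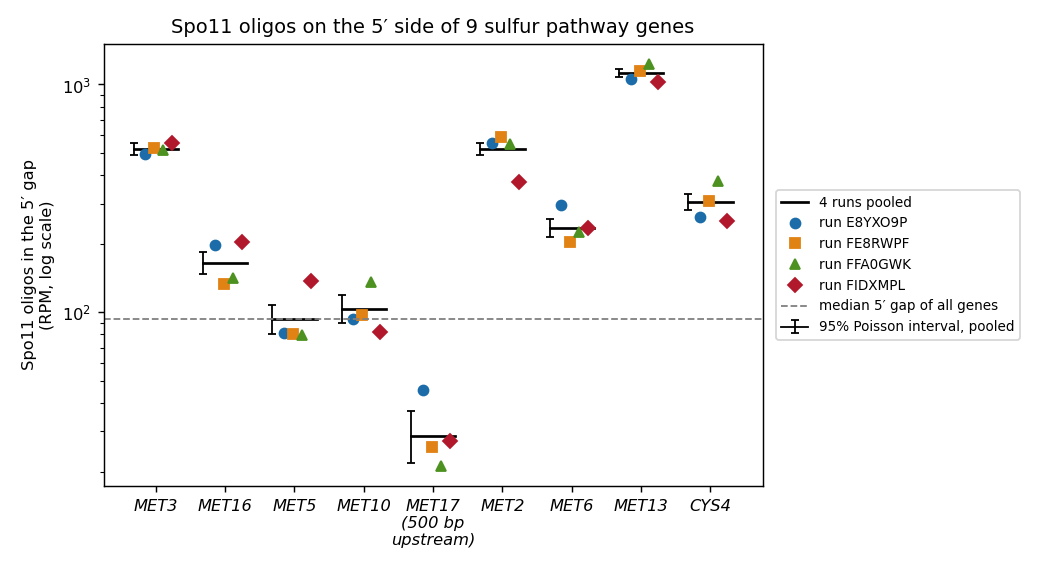
Spo11 oligos in the 5′ gap of each gene in RPM on a log axis, with points for the 4 sequencing runs, a bar for the pooled value and its 95% Poisson interval; for MET17 the 500 bp upstream are plotted, and the dashed line is the median 5′ gap of all genes. MET13 lies highest in every run (1029 to 1229 RPM), and MET5 and MET10 lie close to the line. The line is not the reference for MET17, whose 500 bp window had a median of 77.0 RPM over all genes.

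MET3 encodes ATP sulfurylase, which activates sulfate in the first step of assimilation. Its 5′ gap is 1557 bp long and shared with TDH2, a glyceraldehyde-3-phosphate dehydrogenase gene that points the other way. It held 1059 oligos (95% Poisson interval 996 to 1125), 523 RPM, the 560th highest of 5607 genes. The runs gave 495 RPM in E8YXO9P, 524 in FE8RWPF, 517 in FFA0GWK and 551 in FIDXMPL. Of the 8 gaps this had the narrowest spread, with a 1.11-fold range over the runs. Most of these breaks were not beside MET3: 22.4% of the oligos lay nearer to MET3 than to TDH2. The gap held a pair of hotspots. The stronger one (chromosome X, 454983 to 455398) had 808 oligos, 399 RPM, and its summit lay 974 bp upstream of the MET3 start. The weaker one (X, 455719 to 455951) had 222 oligos, 109.6 RPM, with its summit 446 bp upstream. The runs differed at the weaker hotspot, with 145 RPM in FIDXMPL and 78.4 to 112 RPM in the other 3, and much less at the stronger one, with 387 RPM in FIDXMPL and 399 to 408 RPM in the others.

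The busiest position in the MET3 gap took a large share of its breaks. Top-strand oligos at X 455279 numbered 175, or 16.5% of the gap (95% Wilson interval 14.4 to 18.9%), the highest share at any position among the 8 gaps. This position ranked first in all 4 runs. At the offset of 2 positions that staggered cutting by Spo11 leaves, the bottom strand had 43 oligos, the most of 136 bottom-strand positions hit in the gap. The MET3 ORF was nearly free of breaks, with 7 oligos in 1536 bp (95% Poisson interval 2.81 to 14.4).

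MET16 encodes the reductase that turns the activated sulfate into sulfite. Its 443 bp gap, shared with NUT2, a Mediator subunit gene, held 333 oligos (298 to 371), 164 RPM. FIDXMPL with 204 RPM and E8YXO9P with 197 RPM were high, and FFA0GWK with 141 RPM and FE8RWPF with 133 RPM were low. The hotspot (XVI, 877678 to 878051) had its summit 130 bp upstream of MET16, the shortest distance among the 9 genes. Within the gap 73.6% of oligos lay nearer to MET16 than to NUT2. On its 3′ side MET16 is flanked by the 5′ gap of the mitochondrial ribosomal protein gene MRP2, with 287 oligos (142 RPM). Between these gaps the 786 bp MET16 ORF held 19 oligos.

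Sulfite reductase, the enzyme that makes sulfide, has its subunits encoded by MET5 and MET10, and these 2 genes had the lowest 5′ gaps of the 8. MET5 had 189 oligos (163 to 218), 93.3 RPM and stood at percentile 49.9 of all genes. MET10 had 210 oligos (183 to 240), 103.7 RPM. Their counting intervals overlap, and so do their ranges over runs (79.5 to 137 RPM for MET5, 82.0 to 136 RPM for MET10). The runs ranked the pair both ways: FIDXMPL had 137 RPM at MET5 and 82.0 at MET10, whereas FFA0GWK had 79.5 at MET5 and 136 at MET10.

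The subunit genes differed in how the breaks were spread. The MET5 gap is 1281 bp long and shared with IML1, a gene of the complex that restrains TORC1 signalling. Its density was 72.9 RPM per kb, the lowest of the 8 gaps and below the median of all genes (199 RPM per kb). Its hotspot (X, 683463 to 683583) was 121 bp wide and had its summit 238 bp upstream of MET5. That hotspot had 93 oligos, 45.9 RPM, and ranked 2856th of 3626. It had 79.9 RPM in FIDXMPL and 32.3 to 40.4 RPM in the other runs. Of the gap's oligos 83.1% lay nearer to MET5 than to IML1. The MET10 gap is 338 bp long and begins at the 3′ end of PTR3, an amino acid sensor gene, and its density was 307 RPM per kb. The MET10 hotspot (VI, 212968 to 213199) had 211 oligos and 2 peaks, 277 and 170 bp upstream of the start. MET10 also had oligos just inside its reading frame: 38 of the 66 in its 3108 bp ORF lay in the first 200 bp. Over all ORFs 30.8% of oligos lay in the first 200 bp. Over the ORFs of the listed genes it was 68 of 343, or 19.8%, MET10 included. Of its oligos in gap and ORF together 76.1% were in the gap (70.7 to 80.7%), the lowest share of the 8.

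MET17 encodes the sulfhydrylase that joins sulfide to O-acetylhomoserine, and by the 500 bp upstream of the ORF it was the coldest of the 9. Its start overlaps YLR302C, a reading frame of 363 bp on the other strand, by 12 bp, so it had no 5′ gap. The 500 bp upstream of the MET17 ORF held 58 oligos, 28.6 RPM (95% Poisson interval 21.7 to 37.0 RPM). This is percentile 27.2 of the same window over 5684 genes, whose median was 77.0 RPM. The runs gave 45.5 RPM in E8YXO9P and 21.2 to 27.3 RPM in the other 3, on 12 to 18 oligos each. A hotspot (XII, 732259 to 732317) of 41 oligos, with a 95% Poisson interval of 29.4 to 55.6 oligos, lay wholly within YLR302C, its summit 254 bp upstream of MET17, and ranked 3496th of 3626. All 58 oligos of the YLR302C reading frame lie on the promoter side of MET17, at 78.9 RPM per kb, above 94.3% of ORFs. The MET17 ORF held 12 oligos in 1335 bp.

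MET2 encodes the acetyltransferase that makes the carbon acceptor, O-acetylhomoserine, from homoserine. Its 481 bp gap held 1052 oligos (989 to 1118), 519.5 RPM, which differs from MET3 by less than counting error. The MET2 gap is shorter and was denser, with 1080 RPM per kb at MET2 and 336 RPM per kb at MET3. The runs gave 374 RPM in FIDXMPL, against 554 RPM in E8YXO9P, 589 in FE8RWPF and 546 in FFA0GWK. FIDXMPL was thus low and the other 3 lay together. Oligos at the busiest position, top strand XIV 117065, numbered 116, or 11.0% of the gap, with 60 at the offset of 2 on the bottom strand. The 10 busiest positions held 52.6% of the gap. The hotspot (XIV, 116594 to 117199) had 1595 oligos and was not bounded by the gap: 1032 lay in the gap and 493 in YNL277W-A, a reading frame of 189 bp upstream of MET2 on the same strand. That reading frame had 1288 RPM per kb, above 99.6% of ORFs.

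MET6 encodes methionine synthase, which makes methionine from homocysteine. Its gap of 687 bp, shared with IES5, a subunit gene of the INO80 chromatin remodeller, held 475 oligos (433 to 520), 235 RPM. E8YXO9P was highest with 296 RPM, and the other runs gave 202 to 234 RPM. The hotspot (V, 342380 to 342726) formed 1 broad mound with its summit 377 bp upstream of MET6, near the middle of the gap. By the table as given, 31.2% of oligos lay nearer to MET6 than to IES5. This split depends on the register: the median oligo lay 390 bp from MET6, and the local best shift was 60 bp. That shift moves MET6 towards the oligos and IES5 away, so the side with more oligos is not settled. Strands were the most uneven of the 8 gaps, with 190 top-strand and 285 bottom-strand oligos (40% top, 95% Wilson interval 35.7 to 44.5%).

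MET13 encodes a methylenetetrahydrofolate reductase, which supplies the methyl group for methionine synthesis, and it was the hottest of the 9. Its 380 bp gap held 2276 oligos (2183 to 2371), 1124 RPM, at rank 173 of 5607 by RPM and 64 by density (2958 RPM per kb). These are 36.6% of the oligos in all 8 gaps. The runs gave 1057 RPM in E8YXO9P, 1145 in FE8RWPF, 1229 in FFA0GWK and 1029 in FIDXMPL, all above every run of any other gene of the list. The oligos hugged the far edge of the gap: 0.659% lay nearer to MET13 than to the 3′ end of SCS3, a gene of lipid storage in the endoplasmic reticulum that lies upstream on the same strand.

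The MET13 hotspot (VII, 271283 to 272379) was 1097 bp wide and ranked 35th of 3626 with 3921 oligos (3799 to 4046), 1936 RPM. Of these, 2270 lay in the gap and 1651 in the SCS3 reading frame, which at 719.8 RPM per kb was denser than 99.0% of ORFs. The summit lay 362 bp upstream of MET13, close to the listed end of SCS3. The split between gap and SCS3 therefore depends on the register: moving the gene table by 100 bp gave 290 RPM in the gap, moving it as far the other way gave 1413 RPM, and the local best shift of −10 bp gave 1262 RPM. The hotspot as a whole does not depend on the table, and its runs spanned 1803 to 2094 RPM. MET13 was also the only one of the 9 with a hotspot summit in its ORF (VII, 272917 to 273039), 457 bp past the start, with 85 oligos and 29.5 to 60.7 RPM over the runs.

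CYS4 encodes cystathionine beta-synthase, which leads homocysteine towards cysteine. Its gap of 674 bp, shared with the glutathione transferase gene GTO1, held 619 oligos (571 to 670), 306 RPM. FFA0GWK was highest with 378 RPM, FE8RWPF gave 308, E8YXO9P 263 and FIDXMPL 252. The hotspot (VII, 798085 to 798492) had 600 oligos and 2 peaks, 218 and 125 bp upstream of CYS4, and 87.2% of the gap's oligos lay nearer to CYS4 than to GTO1. Its busiest position, top strand VII 798406 with 42 oligos, had 28 at the offset of 2 on the bottom strand, the most of 102 bottom-strand positions.

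In order of 5′ gap RPM the genes were MET13, MET3, MET2, CYS4, MET6, MET16, MET10 and MET5, a 12-fold range. Counting intervals of neighbours in this order overlap for MET3 with MET2 and for MET10 with MET5, and are apart for the other 5 pairs. The ranges over runs leave less of the order: only MET13 is apart from its neighbour, and the other 6 pairs overlap. Counting each position and strand once, which removes repeated reads of a position, put MET3 highest (479 RPM of distinct positions) and MET10 lowest (114 RPM), with MET13 at 359 RPM.

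Reading frames were far poorer in breaks than the gaps upstream of them. The 5′ gap was denser than the ORF in 8 of 8 genes, beside 93.4% of all genes, from 19.4 times at MET5 to 149 times at MET3. The upper end rests on few ORF oligos, 7 at MET3 and 13 at CYS4: without FIDXMPL MET3 had 3 and a ratio of 262, and without FFA0GWK CYS4 had 3 and the highest ratio, 305, with MET3 at 108. Shares of gap and ORF oligos that lay in the gap ran from 76.1% at MET10 to 99.3% at MET3, with a median of 95.1% for the 8 genes and 92.8% for all genes. ORF density ran from 2.25 RPM per kb at MET3 to 35.3 at MET13, and the median ORF of all 5684 genes had 4.93 RPM per kb. The lowest ORF was MET3 at 1.26 RPM per kb without FIDXMPL and CYS4 at 1.35 without FFA0GWK. Without E8YXO9P, MET3 and MET6 tied as the lowest at 2.40. MET13 was highest with any run left out. MET13, MET2, MET16 and MET10 lay above that median and the other 5 below it.

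**Figure D2:**
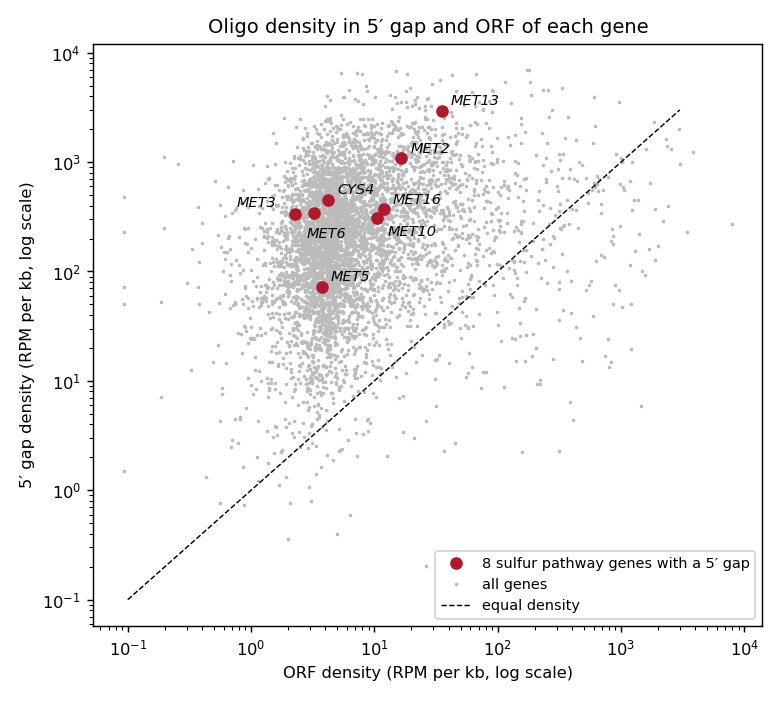
Oligo density of the 5′ gap against that of the ORF, both in RPM per kb on log axes, for the 8 genes (red) and all genes with oligos in both (grey, 5259 genes; 348 with a 0 in either are not drawn). The 8 genes lie well above the dashed line of equal density, at 72.9 to 2958 RPM per kb in the gap and 2.25 to 35.3 RPM per kb in the ORF.

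The 3′ sides are given here by the direction of the next gene, without the same values over all genes. Where the neighbour points towards the member, the convergent gap held few oligos: 8 at MET3 beside SPC1, 42 at MET6 beside TRP2, 2 at MET10 beside SMC2, 10 at MET13 beside MON1 and 20 at MET17 beside ACO1, or 0.988 to 20.7 RPM. Where the 3′ gap is the 5′ gap of the next gene, it held 388 oligos at MET2 beside BOR1, 39 at MET5 beside TTI2, 287 at MET16 beside MRP2 and 317 at CYS4 beside PTI1, or 19.3 to 192 RPM. The 39 oligos at MET5 and the 42 at MET6 differ by less than counting error. Per kb the convergent gaps had 5.68 to 53.0 RPM and the tandem ones 77.0 RPM at MET5 to 653 RPM at MET16.

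Oligos from the 8 gaps were about as long as oligos in general. Their median was 29 nt, as for all mapped oligos, and 59.2% were 25 to 32 nt long, beside 59.9% of all. By gene the share ran from 53.4% at MET13 to 67.7% at MET3. Top-strand oligos made up 40% at MET6 to 58.8% at MET3, and both strands were hit in every gap. At the offset of 2 from the busiest position, MET5 had 1 oligo beside 11 at the busiest one, and MET16 had 0 beside 18. MET10 had 6 beside 28, and MET3 had 43 beside 175. These counts are small at MET5, MET16 and MET10.

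Run FIDXMPL differed from the other runs at 5 of the 8 genes by more than counting error. In FIDXMPL over the other 3 runs pooled, MET5 was 1.71-fold higher, with 137 RPM in FIDXMPL and 80.0 RPM in the others (log2 0.77, 95% exact interval 0.32 to 1.22), and MET16 was 1.34-fold higher, with 204 and 152 RPM (log2 0.42, 0.07 to 0.77). MET2 was lower, with 374 RPM in FIDXMPL and 564 RPM in the others (log2 −0.59, −0.83 to −0.36). CYS4 was lower, with 252 and 322 RPM (log2 −0.35, −0.65 to −0.06), as was MET13, with 1029 and 1153 RPM (log2 −0.16, −0.31 to −0.02). The intervals of MET3, MET6 and MET10 include 0. Of 2590 gaps with 100 or more oligos, 23.4% were called higher in FIDXMPL and 21.4% lower, so 2 higher and 3 lower of 8 are close to what gaps in general show. MET5 lay at percentile 93.4 of these gaps and MET2 at percentile 11.1. These values compare sequencing runs, and the labels do not say which culture a run came from.

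**Figure D3:**
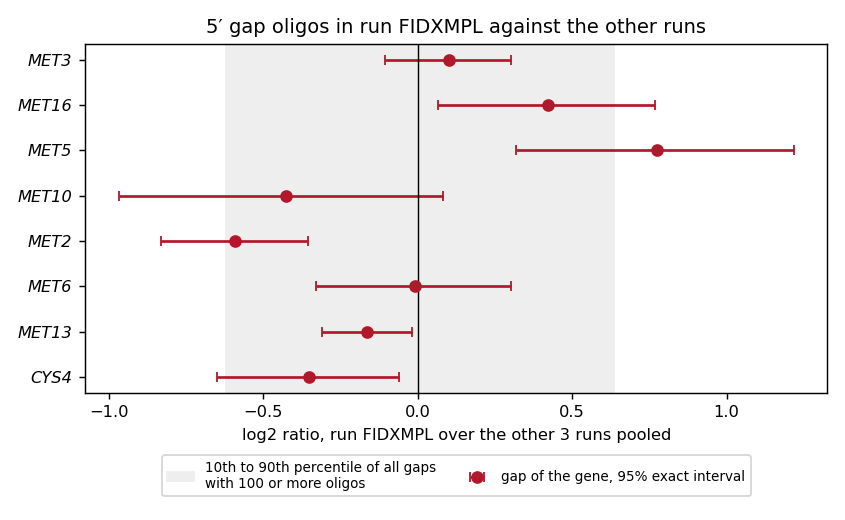
Log2 ratio of 5′ gap RPM in run FIDXMPL over the other 3 runs pooled, with 95% exact intervals, for the 8 genes with a 5′ gap; the grey band spans the 10th to 90th percentile (−0.62 to 0.64) of 2590 gaps. MET5 lies beyond the upper edge of the band (0.77), and the other 7 genes lie within it.

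Summed, the 8 gaps gave 2863 RPM in FIDXMPL and 3036, 3078 and 3253 RPM in E8YXO9P, FE8RWPF and FFA0GWK. Among 590 genes with 1000 or more oligos in the 5′ gap, the run profile closest to this sum was that of OYE2, an NADPH oxidoreductase gene (Euclidean distance of log2 run ratios 0.016 over 4 runs, median of all candidates 0.318). EMP24 and YIP4, which share a gap, followed at 0.023. With 4 runs this likeness is only a description.

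Other genes of sulfur metabolism, 32 in a list of transporters, further enzymes and regulators, showed a wider range. MET14 and MET1, on chromosome XI, were left out because map and table were out of register there, with best shifts of −380 and −395 bp. Of the 30 others, 23 had a hotspot summit inside the gap (76.7%, beside the 70.9% of all genes). With summits outside any 5′ gap given to the nearest gap it was 27 (90%, beside 74.6%). The median gap of the 30 had 72.8 RPM, below the 93.3 RPM of all genes and the 270.1 RPM of the 8. MET4, the activator of the pathway, had 3200 RPM in the gap it shares with LEU4. CYS3, the enzyme gene that completes cysteine synthesis, had 1755 RPM, and GSH1, which starts glutathione synthesis, had 1589 RPM. The lowest were HOM2, of homoserine synthesis, with 0 oligos in a gap of 24 bp (exact 95% Poisson interval 0 to 1.82 RPM), the methionine permease gene MUP3 with 3 oligos in 61 bp, and MMP1 and MHT1, of S-methylmethionine uptake and use, with 17 oligos in the gap they share. HOM2 and MUP3 are among the 4 genes whose hotspot summit lies outside the gap. Genes of amino acid synthesis outside the sulfur pathway, 66 of 67 with a gap, had a hotspot summit inside the gap in 58 cases (87.9%). Adding summits outside any 5′ gap made it 60 (90.9%), which brings in SER1 and GDH1. The median gap of this list had 213.6 RPM, from 3200 RPM at LEU4 to 0 oligos in the 95 bp gap of SER1 (interval as for HOM2). That median is below the 270.1 RPM of the 8 genes, but per kb it is above theirs, at 383 RPM beside 356 RPM. ARG4, HIS4, LEU2 and LYS2 of this list are at alleles of the strain; without them 54 of 62 had a summit inside the gap and the median was 212.6 RPM.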

How the data were processed

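The deposited read list gives uniquely mapped reads of all 4 datasets with start, end, strand and a score; the authors' score is a number per read and was not used. The deposited curated map gives raw hit counts per position, both strands together, per the file headers, and served as an alternative. Which aligner, build and curation were used is not given in the sources used here, and the headers name S288C. Genes came from the RefSeq R64 table, used to place oligos, and its coordinates are not printed. The local register was the shift, in windows of 25 kb to either side of a gene, at which ORFs held the fewest oligos, counting at most 10 per position.

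The 5′ end was the listed start on the top strand and the listed end on the bottom strand. Runs are the first 7 characters of the read name. Depth per run is given above, and the 4 datasets could not be separated. Hotspots were segments of a Hann-smoothed map (201 bp) at or above 2.3 times the mean over 12 Mb, merged at gaps of 200 bp or less, at least 25 bp long and with at least 10 RPM. Each summit was given to its gap or the nearest 5′ gap. Chromosome XI (318 genes) and 77 genes without a gap were left out of gap counts. Peaks within gaps were maxima of a 101 bp profile with at least 25% of the highest.

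No test was made, since no files separate replicates; intervals are Wilson, exact Poisson or exact binomial. Counting and calling were tested on simulated data. The genes, lists and rules were chosen with earlier results of these data known; named genes are all 9 members, the neighbours sharing their gaps, the 3 highest and lowest of the further list, the extremes of the amino acid list and the 3 closest run profiles. PCR copies are not marked. No genome sequence was used here, so no promoter motif was examined. Python 3.11.15, numpy 2.4.6, pandas 2.3.3 and scipy 1.17.1 were used.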

Additional observations from a re-analysis of the deposited data

How the results depend on the processing

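No paired analysis was possible because both files pool the 4 datasets. The count of 8 genes with a hotspot in the 5′ gap was 7 or 8 under every alternative that used the gap. It was 7 with a threshold of 5 times the mean and with a minimum of 50 RPM. The share of all genes was not counted under either of these rules, so the counts of 7 have no background beside them. The MET5 hotspot, at 45.9 RPM, lies under that minimum. Leaving out each run in turn left the count at 8, and gave a median gap of 258 to 278 RPM and a median share in the gap of 94.9 to 95.8%. Counting each position and strand once gave a median gap of 300.7 RPM and a median share of 85.6%; by construction it weighs a position hit once as much as one hit often. Moving the gene table by 100 bp gave a median share of 91.1%. The 500 bp upstream of the ORF, with MET17 added to the genes, held a hotspot summit at 9 of 9 and gave a median of 164 RPM. The curated map, oligos of 25 to 40 nt, other gene types as bounds, the opposite and the local shift of the table moved no summary value beyond its counting interval. The local shift was picked for the fewest oligos in ORFs, so it cannot check the share in the gap. With the table moved by 100 bp the MET13 gap fell to 290 RPM and that of MET10 to 53.8 RPM, and MET3 was highest; moved the other way, the MET16 ORF had 88.9 RPM in place of 9.38 RPM. The MET3 gap fell to 112 RPM in the 500 bp upstream. Without FIDXMPL, MET5 had 80.0 RPM and MET2 564 RPM. ORF values rest on 7 to 129 oligos each. Leaving runs out of the gap-to-ORF ratios, and the strain's altered genes out of the amino acid list, was chosen after seeing the data.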
